A study of Mus musculus with 17 samples.

Results

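The response shared by 2 mouse models of diabetes was measured in the hypothalamus by setting both models, pooled with equal weight, against control. The comparison used all 17 arrays of the series: 6 control, 6 streptozotocin (STZ) and 5 ob/ob, each from the hypothalamus of a different male C57Bl/6 mouse aged 9 weeks. Control mice were wildtype and were injected with vehicle. STZ mice were wildtype and received streptozotocin once, intraperitoneally, at 200 µg per g body weight. The ob/ob mice carried the ob/ob genotype, and the labels name no injection for them beyond the protocol text shared by every sample. A probe set counted as called when the pooled change passed a limma test at an adjusted p of 0.05 over all 22626 probe sets and had the same sign in both models. Changes are given as log2 of the Affymetrix MAS5 signal, diabetic over control, with the standard error (SE).

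Streptozotocin kills the insulin-producing beta cells of the pancreas, so that insulin is low. The ob mutation removes leptin, the hormone by which fat tissue reports its stores to the brain. The ob/ob mouse becomes obese, with high insulin, insulin resistance and, as a rule, high glucose and high corticosterone. The models thus differ in insulin and in body fat, and share low leptin signalling and raised glucose as they are usually described. Glucose, insulin, leptin and corticosterone of these mice were not analysed here. In the arcuate nucleus of the hypothalamus, Pomc neurons restrain feeding and Npy neurons drive it, and both read leptin and insulin.

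The arrays were alike in technical measures. Median signals ran from 638 to 707, the 3' to 5' ratio of the Gapdh control probe sets from 0.713 to 0.775, and correlations between arrays from 0.9543 to 0.9724. Markers of regions next to the hypothalamus moved with the groups: the mean log2 level of 22 striatal, cortical and thalamic genes was 9.30 in control (9.09 to 9.65), 9.50 in STZ (9.37 to 9.62) and 9.60 in ob/ob (9.42 to 9.76). Markers of the hypothalamus itself stood at a mean log2 level of 9.58 in control, 9.49 in STZ and 9.31 in ob/ob. In the pooled comparison 11 of 13 were lower, where 46% of all genes were. These markers include Pomc, Hcrt and Trh, which are also among the feeding peptides below, so their level is not separate from that result. The neurosecretory genes Avp, Oxt and Hcrt, which define hypothalamic tissue, were among the brighter probe sets, and 6 of the 13 reached the 40th percentile of signal. Neuronal markers differed little, at mean log2 levels of 12.73, 12.72 and 12.69. The part of dissection in the results below was not tested, but values fitted with the neighbouring-region level as a covariate are given with the first result.

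In the pooled comparison 15 probe sets were called, or 0.0663% of those tested, 6 higher (0.0265%) and 9 lower (0.0398%). They stood for 12 named genes (4 higher and 8 lower, of 12393 genes) and 1 probe set annotated to several genes. Slc2a1, Myrf, Tsc22d3 and Cilp2 rose. Pomc, Hsp90b1, Hsph1, Chordc1, Xpo1, Grb10, Aqp4 and Smarca4 fell. The changes ran from 0.20 to 1.62 in log2 size, and the median SE over all probe sets was 0.108. None of the 15 differed between ob/ob and STZ at the adjusted threshold (smallest adjusted p = 0.86), and 3 did so at an unadjusted p under 0.05. Over all probe sets that contrast took 1 (0.00442%) at the adjusted threshold and 872 (3.85%) unadjusted. The ob/ob value was the larger in 14 of the 15, and the median SE over all probe sets was also larger in ob/ob (0.129) than in STZ (0.123). Tested alone against the same controls, STZ passed for 2 of the 15 and ob/ob for 9 (over all probe sets 0.0309% and 0.0619%), and 6 passed only when the models were pooled. At an unadjusted p under 0.05 the same rule took 2164 probe sets (9.56%), of which 1117 were higher (4.94%) and 1047 lower (4.63%). The called count depended on single arrays: it was 5 without control 1, 5 or 6, 6 without STZ 2 or 5, 8 without control 3, STZ 4 or STZ 6, 9 without ob/ob 1 or 2, 25 without STZ 1, 27 without STZ 3 and 28 without control 4. Both Pomc probe sets, 1 of Slc2a1, 1 of Hsp90b1 and probe set 1422660_at passed whichever array was left out.

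**Figure D1:**
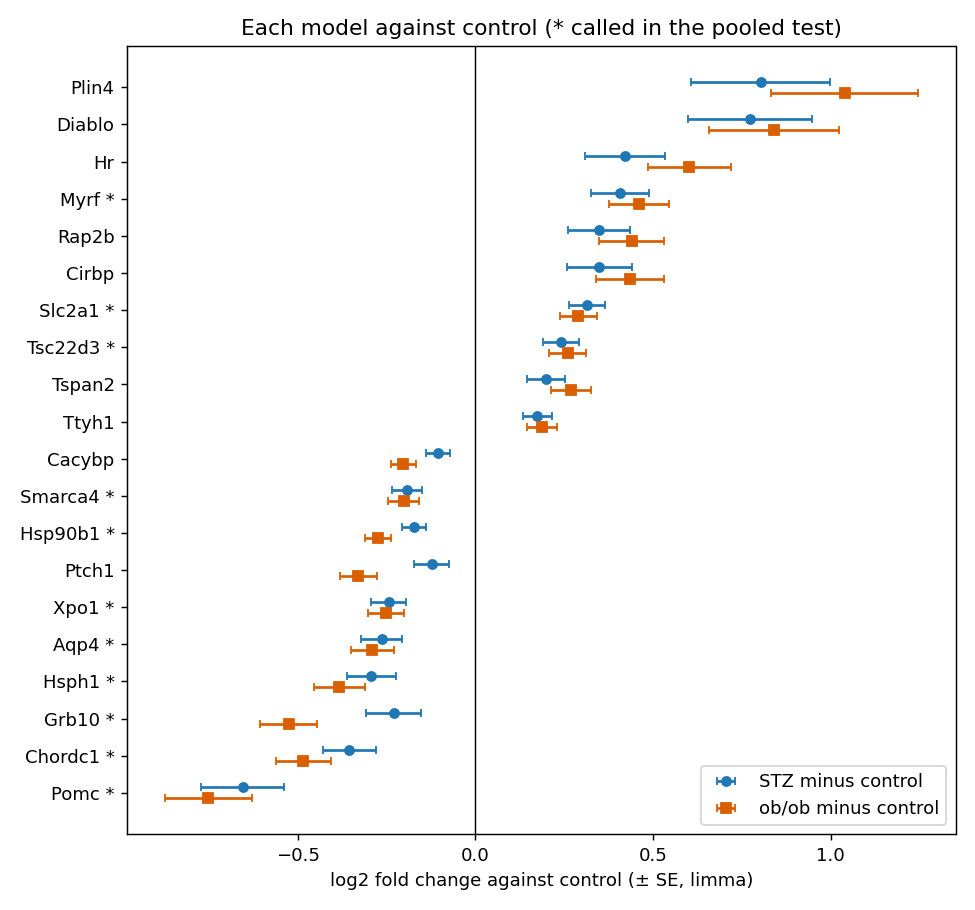
Log2 change against control, with SE bars, of the named genes at or above the 40th percentile of signal, in STZ (circles) and in ob/ob (squares), which share their controls; asterisks mark called genes. Called genes lie on the same side of 0 in both models, as the rule requires, and the lowest value is that of Pomc in ob/ob (-0.75).

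Pomc, the precursor of the melanocortin peptides that lower food intake, showed the largest fall among the called genes. On the brighter Pomc probe set, control arrays read from 1332 to 2118 with a median of 1716, and STZ arrays from 890.8 to 1233 with a median of 1074. The 5 ob/ob arrays read 953.3, 1325, 1005, 845.3 and 920. No diabetic array reached the lowest control. The pooled change of Pomc was -0.70 ± 0.102, or 0.615 times control (adjusted p = 0.00688), with -0.65 in STZ and -0.75 in ob/ob. On the dimmer probe set, of the cross-hybridizing kind, Pomc signals were 626.1 to 984.2 in control and 251 to 447.3 in STZ, and 362, 201.9, 370, 167.5 and 110.5 in ob/ob. There the groups did not overlap either, and Pomc fell by 1.62 ± 0.219 (adjusted p = 0.00443). With the neighbouring-region level as a covariate, the Pomc changes kept 91.4% and 83.3% of their size. In that fit the SE rose 1.3 times in the median and 0 probe sets passed, with 1937 at an unadjusted p under 0.05. Across the 15 called probe sets the size kept in that fit ran from 75.6% to 124%. The pituitary also makes Pomc: 0 of 7 measured pituitary markers reached the 40th percentile of signal, and their summed signal was 883 to 1304 in control, 855 to 1175 in STZ and 599 to 1152 in ob/ob. In whole tissue, fewer cells of a type and less RNA per cell cannot be told apart.

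**Figure D2:**
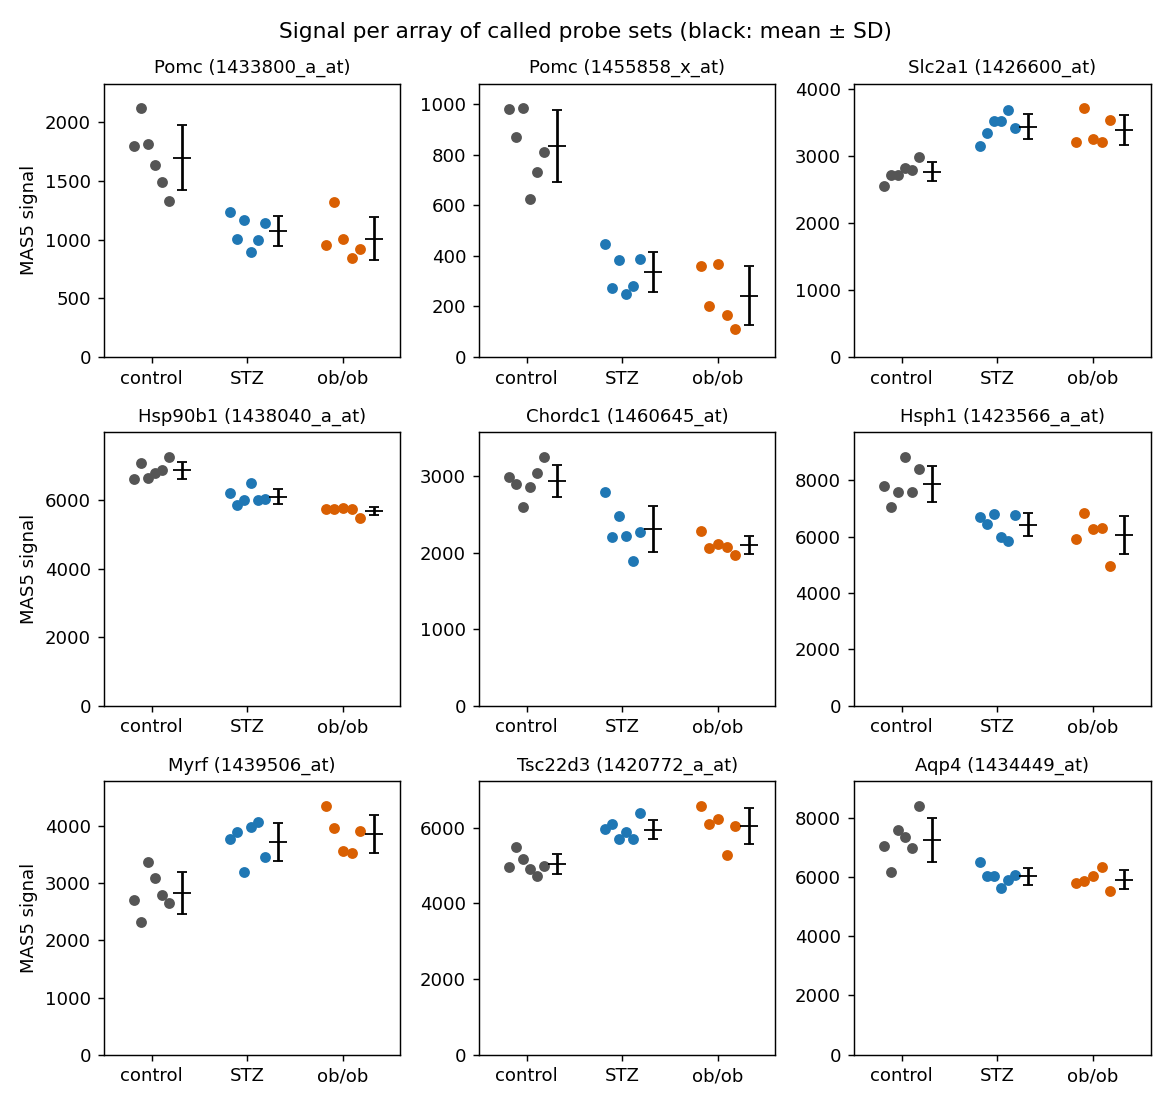
MAS5 signal on each array for 9 called probe sets, 1 point per mouse on linear axes that start at 0, with the group mean and SD in black beside the points. For Pomc, Slc2a1, Hsp90b1 and Hsph1 all 11 diabetic arrays lie to one side of all 6 controls.

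Cartpt, which Pomc neurons co-express, and Npy, their orexigenic counterpart, stood in opposite directions but missed the adjusted threshold. Cartpt read 3934 to 4780 in control and 2745 to 4165 in STZ, and 3826, 3383, 3462, 3512 and 4141 in ob/ob. All 11 diabetic arrays lay below the control mean and 9 lay below every control, with a pooled Cartpt value of -0.32 ± 0.0685 (adjusted p = 0.0927). Npy read 2572 to 3172 in control and 3042 to 4510 in STZ, and 3085, 3603, 3524, 3701 and 3360 in ob/ob. All 11 lay above the control mean and 9 above every control, with a pooled Npy value of 0.30 ± 0.0680 (adjusted p = 0.102). Agrp, the peptide made with Npy, had no probe set with a single symbol and is not analysed here. Of 13 measured feeding peptides and receptors, 1 was called lower (Pomc) and 11 had a negative pooled value, against 46% negative over all 12393 genes. At an unadjusted p under 0.05, 6 were lower and 1 higher, where 4.45% and 5.62% of all genes were. With the neighbouring-region level as a covariate 2 were lower and 1 higher, and the list's median was -0.09. Besides Pomc and Cartpt, the lower 6 held Hcrt (orexin, of arousal and feeding) at -0.32, Gal (galanin) at -0.18, Trh at -0.28 and Nts (neurotensin) at -0.12. The list's median was -0.14, against 0.01 over all genes. This list and the others below were chosen with earlier results of these data known, so their counts are descriptive and not independent support. Receptors were nearer 0 or less precise: Npy2r stood at -0.14 ± 0.113, Lepr, the leptin receptor, at -0.10 ± 0.146 and Mc3r at -0.05 ± 0.188.

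Slc2a1 was the called glucose carrier, and rose. It encodes GLUT1, the glucose carrier of the blood-brain barrier and of astrocytes. On the probe set with the smallest p, Slc2a1 read 2548 to 2984 in control (median 2760) and 3141 to 3681 in STZ (median 3468), and 3213, 3708, 3258, 3202 and 3529 in ob/ob. Every diabetic array exceeded every control. The pooled Slc2a1 change was 0.30 ± 0.0440 (1.23 times control, adjusted p = 0.00688), with 0.31 in STZ and 0.29 in ob/ob. The 95% interval of ob/ob minus STZ ran from -0.13 to 0.09. This call passed whichever array was left out, but was lost with median centring and with the neighbouring-region covariate. A second Slc2a1 probe set rose by 0.32 ± 0.0591 (adjusted p = 0.0499), with 10 of 11 diabetic arrays above every control. That call held only without control 3, control 4, STZ 1, STZ 3 or ob/ob 4, and its adjusted p reached 0.131 among the other omissions. The brightest Slc2a1 probe set stood at 0.29 ± 0.0559 just outside the threshold (adjusted p = 0.0555), though its groups did not overlap. Of 8 measured glucose and monocarboxylate carriers no other had an unadjusted p under 0.05. Slc2a3, the neuronal GLUT3, stood at 0.03 ± 0.0494, and Slc16a1, which carries lactate and ketone bodies, at 0.05 ± 0.0552. Markers of endothelium, where Slc2a1 is abundant, stood at mean log2 levels of 9.67, 9.66 and 9.67 in control, STZ and ob/ob.

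Of the chaperones, which help proteins fold, 3 fell: 2 of 23 measured in the cytosol and 1 of 24 in the endoplasmic reticulum (ER). Over all 12393 genes 8 were called lower, likewise counting a gene where any of its probe sets was called. These were Hsp90b1 (GRP94, the HSP90 of the ER), Hsph1 (HSP110, which recharges HSP70) and Chordc1 (morgana, an HSP90 co-chaperone). In general, cytosolic chaperone genes are switched on by heat shock factor through heat shock elements, and ER chaperone genes by the unfolded protein response through the ER stress element. The promoter letters are shown because both kinds of chaperone held called genes. In the 250 bases before the RefSeq gene start (GRCm38.p6), both strands were searched for the ER stress element (CCAAT, any 9 bases, then CCACG) and for 2 facing heat shock units, GAANNTTC or TTCNNGAA. The ER stress element was found in 8 of 21 ER chaperone genes with a promoter (Calr, Canx, Creld2, Dnajc3, Ero1b, Hsp90b1, Hspa5 and Pdia6) and in 0.113% of 32851 promoters (0.13% of genes). The heat shock units were found in 8 of 20 cytosolic chaperone genes and in 12.8% of promoters (14.5% of genes). None of the 21 held the heat shock units (0 genes), and 0 of the 20 held the ER stress element. Also searched were 3 alternating heat shock units, GAANNTTC and GAA or TTCNNGAA and TTC with 2 bases between, found in 1 cytosolic member and 0.466% of promoters, and the E-box CACGTG, found in 2 members of each chaperone list and 6.02% of promoters. Matches describe letters, not binding. Below, capitals mark the match, on the gene's strand and 5′ to 3′, first for 3 ER chaperones and then for 2 cytosolic ones. Of these 5 genes, Hsp90b1 and Hsph1 were called. Chordc1, the other called chaperone, was not among the 8 cytosolic genes in which the heat shock units were found.
Hsp90b1 (chr10:86705445-86705694, minus strand): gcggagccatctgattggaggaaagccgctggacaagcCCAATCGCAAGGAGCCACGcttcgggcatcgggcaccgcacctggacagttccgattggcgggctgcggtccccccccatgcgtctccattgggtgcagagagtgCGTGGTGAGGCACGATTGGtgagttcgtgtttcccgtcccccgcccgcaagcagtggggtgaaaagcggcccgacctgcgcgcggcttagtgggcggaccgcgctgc
Hspa5 (chr2:34771940-34772089, plus strand): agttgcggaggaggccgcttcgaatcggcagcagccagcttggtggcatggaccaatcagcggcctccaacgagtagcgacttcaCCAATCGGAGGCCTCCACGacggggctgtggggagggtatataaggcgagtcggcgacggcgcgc
Calr (chr8:84846932-84847181, minus strand): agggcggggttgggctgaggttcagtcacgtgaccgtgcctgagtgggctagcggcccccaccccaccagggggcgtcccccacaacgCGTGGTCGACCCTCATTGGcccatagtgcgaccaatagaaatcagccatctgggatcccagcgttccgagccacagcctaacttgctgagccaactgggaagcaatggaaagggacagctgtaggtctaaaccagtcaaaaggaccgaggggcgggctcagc
Hsph1 (chr5:149636337-149636486, minus strand): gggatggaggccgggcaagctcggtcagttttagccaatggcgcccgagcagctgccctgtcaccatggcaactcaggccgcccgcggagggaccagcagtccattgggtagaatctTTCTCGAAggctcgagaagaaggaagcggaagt
Fkbp4 (chr6:128438657-128438906, minus strand): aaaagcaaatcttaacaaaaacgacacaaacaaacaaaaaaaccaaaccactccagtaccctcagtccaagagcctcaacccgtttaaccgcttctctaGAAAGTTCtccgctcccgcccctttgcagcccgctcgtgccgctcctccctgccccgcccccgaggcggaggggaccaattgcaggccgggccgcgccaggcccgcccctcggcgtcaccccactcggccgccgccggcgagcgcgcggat

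Hsp90b1, whose window holds 2 matches, was the most tightly measured of the called genes. On the probe set that passed, Hsp90b1 read 6616 to 7258 in control (median 6845) and 5870 to 6503 in STZ (median 6030), and 5740, 5753, 5766, 5748 and 5480 in ob/ob. No diabetic array reached a control. The change was -0.22 ± 0.0303, or 0.857 times control (adjusted p = 0.00443), with -0.17 in STZ and -0.27 in ob/ob. The brighter Hsp90b1 probe set stood at -0.16 ± 0.0580 (adjusted p = 0.356), so only 1 of the 2 passed. Hspa5 (BiP), the main HSP70 of the ER, read 10230 to 13140 in control and 9461 to 11930 in STZ, and 8872, 9596, 10680, 10120 and 9103 in ob/ob. These groups overlapped, 8 of 11 diabetic arrays lay below every control, and Hspa5 stood at -0.18 ± 0.0626 (adjusted p = 0.337). Calr (calreticulin), a lectin chaperone, stood at -0.16 ± 0.0377 (adjusted p = 0.115), with all 11 diabetic arrays below the control mean. Of 24 measured ER chaperones and stress genes, 1 was called lower, 8 were lower and 0 higher at an unadjusted p under 0.05, and 19 were negative, with a median of -0.07. Over all genes 4.45% were lower, 5.62% higher and 46% negative. With the neighbouring-region covariate 4 of the 24 were lower and 17 negative, and without control 1 the median was -0.03. Manf, a secreted ER protein, stood at -0.23, Creld2 at -0.21, the disulphide isomerases Pdia3 and Pdia6 at -0.21 and -0.18, and Xbp1, a transcription factor of the unfolded protein response, at -0.11. The stress transcription factors Atf4 and Ddit3 (CHOP) stood at 0.02 ± 0.0547 and -0.04 ± 0.110.

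In the cytosol, Hsph1 read 7061 to 8821 in control (median 7703) and 5866 to 6794 in STZ (median 6575) on the probe set that passed, and 5939, 6833, 6269, 6305 and 4967 in ob/ob. The groups did not overlap. Hsph1 fell by 0.34 ± 0.060 (adjusted p = 0.0399), while its brighter probe set stood at -0.25 ± 0.0517 (adjusted p = 0.0824). The Hsph1 call held only without control 2, STZ 1, STZ 3, ob/ob 2, ob/ob 4 or ob/ob 5, and among the other omissions its adjusted p reached 0.124. Chordc1 read 2601 to 3247 in control and 1890 to 2798 in STZ, and 2280, 2063, 2116, 2069 and 1967 in ob/ob. All but 1 diabetic array lay below every control. Chordc1 fell by 0.42 ± 0.0652 (adjusted p = 0.0140), to 0.748 times control, and missed the threshold without control 1, 5 or 6 (adjusted p up to 0.0793). Cacybp, which binds the ubiquitin ligase Siah1, stood just outside it at -0.15 ± 0.0297 (adjusted p = 0.0576). Of 23 measured cytosolic heat shock genes, 2 were called lower, 10 were lower and 1 higher at an unadjusted p under 0.05, and 19 were negative, with a median of -0.08, against 4.45%, 5.62% and 46% of all genes. With the neighbouring-region covariate 8 were lower and 18 negative. The 10 included Fkbp4, an HSP90 co-chaperone of steroid receptors, at -0.21, the small heat shock protein Cryab at -0.30, and the heat-inducible HSP70 genes Hspa1a and Hspa1b, both at -0.34. Hspa1a and Hspa1b are near-identical copies, and their signals may not be separate. The member that was higher was Bag3, an HSP70 partner in autophagy, at 0.35 ± 0.157 (adjusted p = 0.489). Among mitochondrial chaperones 3 of 9 were lower at an unadjusted p under 0.05, led by Hspe1 (HSP10) at -0.27 and its partner Hspd1 (HSP60) at -0.12. Of the 8 subunits of the chaperonin CCT, 2 were lower, Cct4 at -0.14 and Cct7 at -0.10. None of these chaperonin and mitochondrial genes passed the adjusted threshold.

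**Figure D3:**
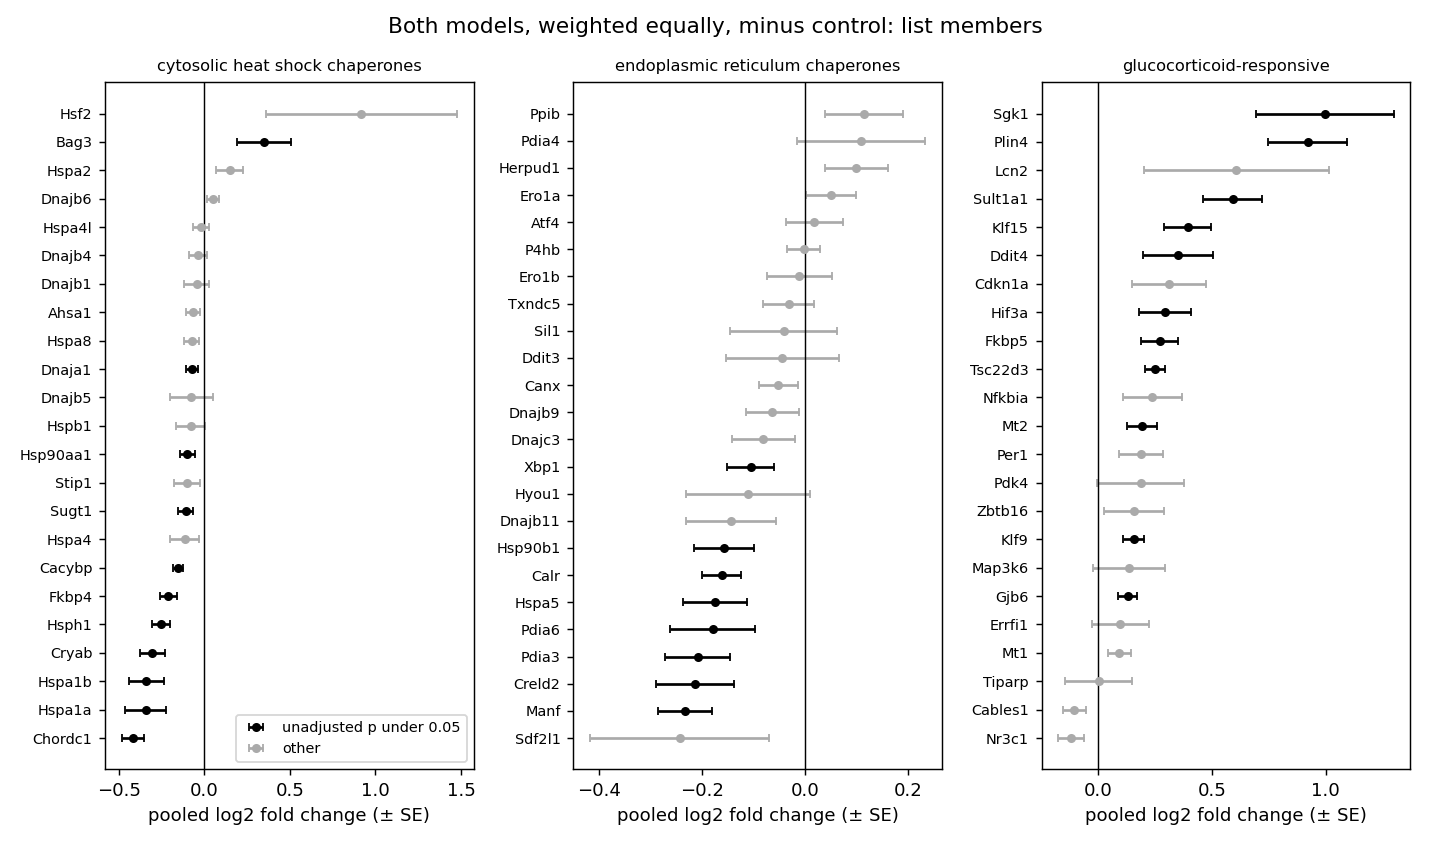
Pooled log2 change with its SE for every measured member of 3 gene lists, each on its brightest probe set; black marks an unadjusted p under 0.05 and grey the rest. Of the chaperones 19 of 23 cytosolic and 19 of 24 ER members lie below 0, and 21 of 23 glucocorticoid-responsive members lie above it.

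Of 23 measured genes known to respond to glucocorticoids, 1 rose and 21 had a positive pooled value, where 54% of all genes did. The list was chosen with earlier results of these data known, so these counts only describe it. Tsc22d3 (GILZ), a direct glucocorticoid receptor target that curbs inflammation, read 4714 to 5501 in control (median 4967) and 5692 to 6375 in STZ (median 5918), and 6568, 6094, 6238, 5264 and 6039 in ob/ob. Only ob/ob 4 fell inside the control range. Tsc22d3 rose by 0.25 ± 0.0441 (1.19 times control, adjusted p = 0.0399), with 0.24 in STZ and 0.26 in ob/ob. Another Tsc22d3 probe set stood at 0.22 (adjusted p = 0.264) and the third at 0.04. The call held only without control 2, STZ 1, STZ 3 or ob/ob 4, and its adjusted p reached 0.120 among the other omissions. Plin4, a coat protein of lipid droplets, was the first gene outside the threshold at 0.92 ± 0.173 (adjusted p = 0.0541). Sult1a1, a sulphotransferase, stood at 0.59 ± 0.129 (adjusted p = 0.0963), and Klf15, a factor of amino acid catabolism, at 0.39 ± 0.102 (adjusted p = 0.162). Fkbp5, which holds back the glucocorticoid receptor, stood at 0.27, with 0.11 in STZ and 0.43 in ob/ob. Sgk1, a kinase of ion transport, had the largest value, 1.0 ± 0.304 (adjusted p = 0.248), but its controls alone ran from 2462 to 11180. At an unadjusted p under 0.05, 11 members were higher and 0 lower, where 5.62% and 4.45% of all genes were. With the neighbouring-region covariate 9 were higher and 0 lower, and without 1 array 9 to 14 were higher and 0 to 2 lower. The median over the whole list was 0.19, with 0.12 in STZ and 0.26 in ob/ob. Nr3c1, the receptor itself, stood at -0.12 ± 0.0573. The palindromic glucocorticoid response element (GNACA, any 3 bases, then TGTNC) was found in the 250-base windows of 3 of 20 genes with a promoter (Map3k6, Mt1 and Sgk1) and in 0.387% of all promoters (0.44% of genes).

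Among glial genes, Myrf rose and Aqp4 fell. Myrf, the transcription factor that oligodendrocytes need to make and keep myelin, read 2322 to 3376 in control (median 2749) and 3204 to 4072 in STZ (median 3834), and 4352, 3977, 3568, 3532 and 3914 in ob/ob. All but 1 diabetic array exceeded every control. The Myrf change was 0.43 ± 0.0709 (1.35 times control, adjusted p = 0.0232), with 0.41 in STZ and 0.46 in ob/ob. It missed the threshold without control 1, 5 or 6 or STZ 2 or 5 (adjusted p up to 0.0867). Of the myelin genes, Mbp, Cnp and Mag stood near 0, at -0.02 ± 0.0593, 0.00 ± 0.0585 and 0.03 ± 0.0766, but others did not. Sox10, which works upstream of Myrf, stood at 0.29 ± 0.0928 (adjusted p = 0.271) and Mog at 0.20 ± 0.0864, whereas Olig2 and Ugt8a stood at -0.19 and -0.18. Of 13 measured oligodendrocyte markers, 1 was called higher. At an unadjusted p under 0.05, 3 were higher and 2 lower, where 5.62% and 4.45% of all genes were. The list's median was 0.06. With the neighbouring-region covariate 2 were higher and 2 lower, 7 were negative and the median was -0.05. The mean log2 level of these markers was 12.49 in control (12.38 to 12.65), 12.55 in STZ and 12.58 in ob/ob, so the groups overlapped.

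Aqp4, the water channel of astrocyte endfeet, read 6168 to 8384 in control (median 7181) and 5615 to 6486 in STZ (median 6024), and 5786, 5862, 6030, 6346 and 5523 in ob/ob. The ranges overlapped: 9 of 11 diabetic arrays lay below every control. Aqp4 fell by 0.28 ± 0.0507 (adjusted p = 0.0484), and its other probe set stood at -0.23 (adjusted p = 0.147). The call held only without control 2, STZ 1, STZ 3 or ob/ob 4, and its adjusted p reached 0.129 among the other omissions. The connexin Gjb6 stood at 0.13 ± 0.0422, with an unadjusted p of 0.00639 (adjusted p = 0.285), opposite in sign to Aqp4. Other astrocyte genes included Gfap at -0.03 ± 0.0636, the glutamate carrier Slc1a3 at 0.09 ± 0.0594 and the gap junction protein Gja1 at 0.06 ± 0.0535. The 11 astrocyte markers stood at mean log2 levels of 12.26, 12.26 and 12.27.

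The other called genes had varied roles. Xpo1 (CRM1), the main nuclear export receptor, read 3416 to 3823 in control and 2809 to 3426 in STZ, and 3257, 3170, 2893, 3047 and 2875 in ob/ob. It overlapped control by 1 STZ array, and fell by 0.25 ± 0.0425 (adjusted p = 0.0335). A second Xpo1 probe set stood at -0.31 (adjusted p = 0.0916) and a dim one at 0.34 ± 0.313. The Xpo1 call was lost without control 1, 3, 5 or 6, STZ 2, 4, 5 or 6, or ob/ob 3 or 5, with an adjusted p of up to 0.102. Smarca4 (BRG1), the ATPase of a chromatin remodelling complex, read 4760 to 5280 in control and 4035 to 4611 in STZ, and 4010, 4382, 4159, 4470 and 4395 in ob/ob. Those groups did not overlap, and Smarca4 fell by 0.20 ± 0.0362 (adjusted p = 0.0484), while another Smarca4 probe set stood at 0.03. That call held only without STZ 1, STZ 3 or ob/ob 4, and its adjusted p reached 0.140 among the other omissions.

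Grb10, an imprinted adaptor that dampens insulin receptor signalling, read 815.1 to 917.6 in control and 668.8 to 793.6 in STZ on the probe set that passed, and 539.5, 634, 679, 538.9 and 613.7 in ob/ob. No diabetic array reached a control. Grb10 fell by 0.38 ± 0.0673 (adjusted p = 0.0399). It had the smallest p of the called genes for a difference between the models: STZ stood at -0.23 and ob/ob at -0.52 (unadjusted p = 0.00164, adjusted p = 0.86). Its brightest probe set stood at -0.09 (adjusted p = 0.436) and another at 0.00, so the probe sets of Grb10 disagreed. The call held only without control 4, STZ 1, STZ 3 or ob/ob 3, and its adjusted p reached 0.120 among the other omissions. Of 23 measured genes of insulin and leptin signalling Grb10 was the 1 called. On the brightest probe sets, 1 was higher and 2 lower at an unadjusted p under 0.05, where 5.62% and 4.45% of all genes were. With the neighbouring-region covariate 0 were higher and 0 lower. Insr, the insulin receptor, stood at 0.18 ± 0.148, Igf1r at 0.01 ± 0.0915 with opposite signs in the models, and Foxo1 at 0.27 ± 0.0995 (adjusted p = 0.365).

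Cilp2, an extracellular matrix protein, rose from a dim level, and its probe set lay under the 40th percentile of signal. It read 136.6 to 266.8 in control and 300.3 to 446.9 in STZ, and 631.5, 497.7, 318.1, 421.7 and 406 in ob/ob, with no overlap. The change was 0.95 ± 0.160 (1.93 times control, adjusted p = 0.0294), and it missed the threshold without control 1, 3, 5 or 6, STZ 2, 4 or 5, or ob/ob 2 (adjusted p up to 0.0869). Probe set 1422660_at, annotated to several genes and so not named, had the smallest p of all. It read 3280 to 4440 in control and 4616 to 5903 in STZ, and 5599, 4511, 5687, 5380 and 5767 in ob/ob, all above control. It rose by 0.54 ± 0.0679 (1.45 times control, adjusted p = 0.00443). Cirbp, the cold-inducible RNA-binding protein, stood at 0.39 (adjusted p = 0.0824).

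In 33 probe sets all 11 diabetic arrays lay to one side of all 6 controls, 14 above (0.0619%) and 19 below (0.084%). Of the 15 called probe sets 9 were among them. Members outside the adjusted threshold, named here after their values were seen, included Pink1, a kinase of mitochondrial quality control, at 0.19 ± 0.0409 (adjusted p = 0.0974). Atp2a2 (SERCA2), which pumps calcium into the ER, stood at -0.27 ± 0.0548 (adjusted p = 0.0734), and Il6st (gp130), the shared receptor chain of interleukin-6 cytokines, at -0.16 ± 0.0382 (adjusted p = 0.128). Other named genes outside the threshold were Diablo, which releases caspases from inhibition, at 0.81 on 1 probe set and -0.01 on another, Hr, a nuclear corepressor, at 0.51 on 1 probe set and 0.03 on another, and Ptch1, the Hedgehog receptor, at -0.23. The small GTPase Rap2b stood at 0.39, Tspan2, a tetraspanin of oligodendrocytes, at 0.23 and the chloride channel Ttyh1 at 0.18, with adjusted p of 0.0576, 0.0748 and 0.0636.

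The series title concerns brain cholesterol. Of 17 measured genes of cholesterol biosynthesis 0 were called by limma, and 5 were lower and 0 higher at an unadjusted p under 0.05, where 4.45% and 5.62% of all genes were. The lower count was 2 without control 6 and 3 without control 1, control 3 or ob/ob 3 or with the neighbouring-region covariate. These 5 were Msmo1 at -0.15, Idi1 at -0.15 ± 0.0595 (adjusted p = 0.390), Fdps at -0.13, Sqle at -0.13 and Fdft1 at -0.08. In all 5 the STZ value was the larger: Idi1, which isomerizes the isoprene unit, stood at -0.25 in STZ and -0.06 in ob/ob, and Sqle, an oxygen-dependent step, at -0.20 and -0.06. The list's median was -0.05 pooled, -0.07 in STZ and 0.02 in ob/ob, so its sign differed between the models, and the pooled median ran from -0.07 to -0.00893 (without control 3) when 1 array was left out. Hmgcs1, at the entry of the pathway, stood at -0.05, with a 95% interval from -0.13 to 0.04. Its regulators Srebf2 and Srebf1 stood at -0.04 and -0.03. Of 16 genes of cholesterol uptake and transport 2 were lower at an unadjusted p under 0.05, both with like values in the models. Lcat, which esterifies cholesterol on lipoproteins, stood at -0.30 ± 0.0701 (adjusted p = 0.115), and Pltp, a phospholipid transfer protein, at -0.20 ± 0.0494 (adjusted p = 0.138). Of 17 genes of fatty acid synthesis 6 were lower and 1 higher at that level, against 4.45% and 5.62% of all genes, and 13 were negative, against 46%. Without control 4 the lower count was 2. They were led by Elovl5, an elongase of polyunsaturated fatty acids, at -0.18 ± 0.0409 (adjusted p = 0.115), with every diabetic array below every control. Acss2, which activates acetate, stood at -0.22 ± 0.0582 and Scd1, a desaturase, at -0.17 ± 0.0700.

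**Figure D4:**
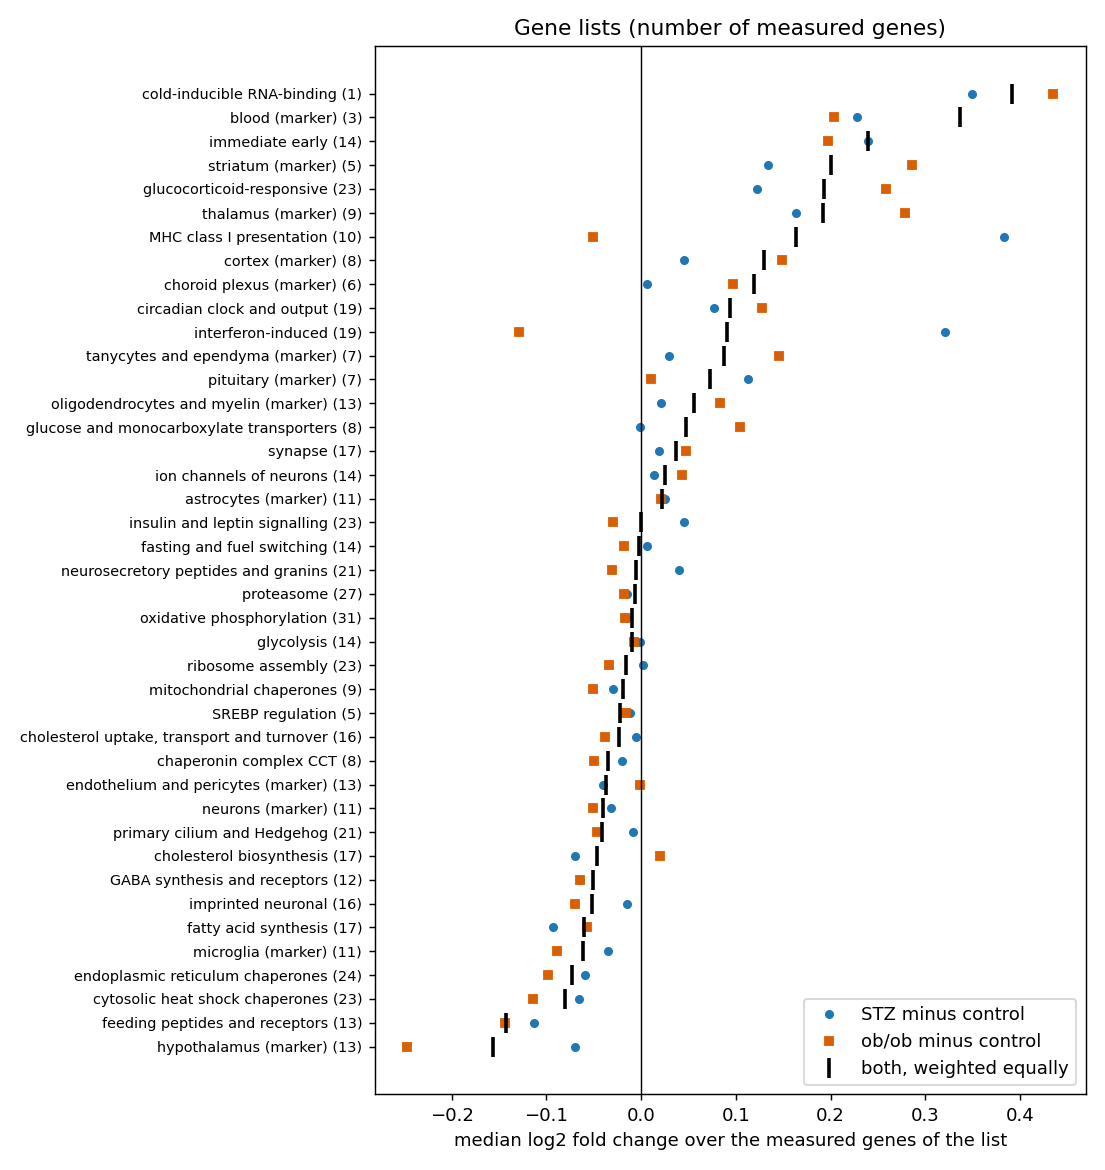
Median log2 change of each gene list on the horizontal axis, pooled (black line), in STZ (circle) and in ob/ob (square), with the number of measured genes in brackets. Glucocorticoid-responsive genes (0.19) lie above 0 and feeding peptides (-0.14), cytosolic (-0.08) and ER chaperones (-0.07) below it in both models.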

How the data were processed

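Hypothalamic RNA was labelled from an oligo(dT) primer and hybridised to Affymetrix arrays, 1 per mouse. The deposited values are intensities on a linear scale, from 0.1 to 48576.7, which the authors computed with MAS5, per the submitters' processing notes. Its version, scaling target and detection calls are not given in the sources used here, and the middle of every array averaged 1499.4 to 1499.9. Of 22690 probe sets, 64 Affymetrix controls were left out and no signal filter was applied. Log2 signals were fitted with limma 3.58.1 (3 group means, eBayes with trend, statmod 1.5.0) in R 4.3.3. The contrast was the mean of STZ and ob/ob minus control, with Benjamini-Hochberg adjustment over 22626 probe sets. The number of arrays limits the precision, and p-values measure the spread between mice. No array duplicated another (0 pairs).

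Titles gave the groups and replicate numbers, and state no batch or pairing. Of 22626 probe sets, 20380 had 1 symbol in the platform annotation, 691 several and 1555 none, and only the first were named. In lists and counts over genes, the brightest probe set stood for a gene, but a listed gene counted as called where any of its probe sets was. Besides the called genes, named genes were those of smallest p filling each direction to 10 and 13 fixed genes of feeding, glucose and cholesterol control, some of which are not reported here. List members in the text are those with the smallest p, plus others of known role. The comparison, the 41 gene lists and the rules were chosen with earlier results of these data known. Lists were counted and given medians, with no set test. Promoters were RefSeq's of GRCm38.p6, and 10 of the 12 called genes had one. Coordinates of probe sets are not given. On simulated data with 200 changed probe sets of 22626, 91% of changes of 0.5 and 98% of changes of 1 in log2 were recovered. There 5.97% of calls were false. These shares describe the simulated data and are not estimates for the real arrays, and none is given for smaller changes. The real data gave 15 calls, down to 0.20 in log2 size, and 5 to 28 without 1 array. Among real changes over 0.5, those of Pomc, Cilp2 and probe set 1422660_at were called. Those of Plin4 (0.92), Diablo (0.81) and Hr (0.51), among others, were not. Alternatives were other filters, scalings, weights and models, and each array left out in turn.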

Additional observations from a re-analysis of the deposited data

Results flagged for a closer look

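Each group's highest and lowest array was compared with the nearest other array, as a share of the group's range, for named genes and marker lists. Of 138 checks 8 passed the 95% limit, and chance passes about 1 in 20. Among called probe sets, ob/ob 5 had the lowest Hsp90b1 signal of its group (log2 12.42, the next at 12.49). Probe set 1422660_at was lowest in ob/ob 2 (12.14, the next at 12.39). Both changes passed without any one array. Cacybp was low in ob/ob 5 (12.63) and Srebf2 in STZ 6 (11.38). Of the marker lists, the mean log2 level of neurons was high in ob/ob 5 (12.71), microglia low in ob/ob 1 (9.92), pituitary low in ob/ob 3 (5.70) and blood low in STZ 3 (6.69).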

How the results depend on the processing

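The 15 called changes kept their direction under every one of the 30 alternatives in which they could be fitted; both signal filters left out Cilp2 and the dimmer Pomc probe set, the stricter one also Grb10, and 1422660_at had no value as a gene mean. The count of calls (15, of which 6 higher) was 25 (12 higher, 13 lower) with probe sets under the 40th percentile of signal left out, 23 (11 higher) with those under the 60th, 29 (16 higher) with array weights, 8 (3 higher, 5 lower) without a trend, and 0 in both directions with the neighbouring-region level as covariate. Quantile normalization gave 17 calls, 4 higher and 13 lower. Median centring gave 10 calls, 4 higher and 6 lower, and there both Slc2a1 probe sets, Hsph1, Aqp4 and Smarca4 missed the threshold. Leaving out 1 array gave 5 to 28 calls, 2 to 14 higher and 3 to 17 lower. The calls for ob/ob against STZ (1) came to 5 and 3 with the filters, 4 with quantile normalization or median centring, 8 with array weights, 0 without a trend and 1 to 8 without 1 array. The 14 probe sets wholly above control came to 9 with the 60th percentile filter, 6 with median centring, 8 as means over a gene's probe sets and 14 to 31 without 1 array, and the 19 wholly below to 9 as gene means and 19 to 47 without 1 array. The log2 change of Igf1r (0.01) reversed with quantile normalization (-0.00828), median centring (-0.0216), the covariate (-0.0208) and gene means (-0.0197), and without 1 array ran from -0.0339 to 0.0565. The log2 change of Srebf1 (-0.03) reversed with the covariate (0.0732) and without 1 array ran from -0.0815 to 0.0153. The causes were not tested. Of 16 same-numbered pairs of arrays, 1 correlated over 0.1 in its deviations from the group means. That cannot show whether arrays were processed together. Some differently numbered arrays correlated more strongly, such as STZ 6 with ob/ob 1 (0.398) and STZ 3 with ob/ob 1 (-0.374), and the cause was not tested. A replicate block gave 10 calls, 5 lower, and 0 for ob/ob against STZ (872 at an unadjusted p under 0.05). Dim probe sets limit the calls of Cilp2 and of the dimmer Pomc probe set.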

Other observations

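Several lists not described above held no called gene. Of 14 measured immediate early genes, which mark recent cell activity, 4 were higher and 0 lower at an unadjusted p under 0.05, where 5.62% and 4.45% of all genes were. The higher count was 1 without control 5 or ob/ob 3, and 2 without control 1, STZ 2, STZ 4 or ob/ob 2. The 4 were Dusp1, a phosphatase of MAP kinases (0.48 ± 0.130, adjusted p = 0.183), Egr3 (0.40), Nr4a1 (0.33) and Ier2 (0.28), and the list's median was 0.24. Fos itself stood at 0.32 ± 0.206. Of 19 clock genes 14 were positive (10 with the neighbouring-region covariate), where 54% of all genes were, with Tef, a clock output factor, at 0.14 ± 0.0320 (adjusted p = 0.116), Cry2, a repressor of the clock, at 0.20 and Dbp, another output factor, at -0.08.

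Of 11 microglial markers 10 were negative, where 46% of all genes were, with a median of -0.06. Without control 6 only 6 were negative, with a median of -0.01, and with the neighbouring-region covariate 6 were, with a median of -0.02. The median was -0.04 without control 3, STZ 3 or ob/ob 1, 3 or 5, and 7 were negative without ob/ob 1. Cx3cr1, the fractalkine receptor, stood at -0.34 ± 0.105 (adjusted p = 0.255). Glycolysis (14 genes) and the synapse (17 genes) held 0 genes at an unadjusted p under 0.05. Lists of MHC class I presentation and interferon-induced genes had medians of opposite sign in the models, 0.38 and 0.32 in STZ and -0.05 and -0.13 in ob/ob. Ttr, the main transcript of choroid plexus, read 22.1 to 49.5 in control and 27.7 to 90.1 in STZ on its representative probe set, but 111.2, 110.7, 2121, 6654 and 304.1 in ob/ob.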
